A study of Mus musculus with 6 samples.

Results

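The calcium/calmodulin-dependent protein kinase (CaMK) genes and the genes of the endogenous CaMKII inhibitors were examined in the brains of mice whose feed held PLDP, a decomposition product of porcine liver made with protease. These are 10 genes: the CaMKII subunits Camk2a, Camk2b, Camk2d and Camk2g, the inhibitors Camk2n1 and Camk2n2, the kinases Camk4 and Camk1d, and the upstream kinases Camkk1 and Camkk2. They are defined by name and function, without a threshold on their values, but were chosen with earlier results of these data known. They were found by Ensembl identifier through GENCODE M21. All 10 were among the 60354 features of the count files, and all 10 passed the filter on low counts. RNA-seq was performed on whole brain from 6 mice, of which numbers 2, 5 and 10 (control mice) had the control diet and numbers 17, 22 and 26 (PLDP mice) the PLDP diet. All were male C57BL/6NCrSlc mice that were 16 weeks old when the diets began. Feeding lasted 16 weeks. Both diets were based on AIN-93M, modified to hold 20% PLDP for the PLDP mice, and without PLDP but with calories adjusted to match for the control mice. Every sequenced mouse had also gone through the behavioral tests, during which no PLDP was given, so the RNA was collected after the feeding period had ended.

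When calcium enters a neuron it binds calmodulin, and calcium/calmodulin switches on the CaM kinases. CaMKII is a large multi-subunit enzyme, abundant at excitatory synapses, that can keep itself active by autophosphorylation and is known for its part in long-term potentiation and memory. CaMKI and CaMKIV belong to a separate branch in which an upstream kinase, CaMKK, must phosphorylate them for full activity. CaMKIV acts in the nucleus on CREB and its coactivators. The inhibitors encoded by Camk2n1 and Camk2n2 are small proteins that bind the active catalytic domain of CaMKII.

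The coding sequences of the inhibitors are shown to let the paralogs be compared, since the diets were apart for one of them and not for the other, and since reads from a stretch that 2 genes share in full cannot be assigned to either. Both come from the GENCODE M21 annotation on build GRCm38, are written 5′ to 3′ as the coding strand with the stop codon, and are joined from 2 exons. The Camk2n1 sequence (237 bases) lies at chr4:138455186-138456788 on the plus strand, and the Camk2n2 sequence (240 bases) at chr16:20620173-20621194 on the minus strand. Capitals mark the 2 stretches of at least 12 bases that are identical in the alignment of these sequences.
Camk2n1: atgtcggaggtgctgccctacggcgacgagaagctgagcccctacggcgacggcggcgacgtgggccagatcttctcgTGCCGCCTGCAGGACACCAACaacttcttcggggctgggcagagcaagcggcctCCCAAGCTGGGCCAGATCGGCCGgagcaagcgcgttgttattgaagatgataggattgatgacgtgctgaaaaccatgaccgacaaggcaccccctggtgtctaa
Camk2n2: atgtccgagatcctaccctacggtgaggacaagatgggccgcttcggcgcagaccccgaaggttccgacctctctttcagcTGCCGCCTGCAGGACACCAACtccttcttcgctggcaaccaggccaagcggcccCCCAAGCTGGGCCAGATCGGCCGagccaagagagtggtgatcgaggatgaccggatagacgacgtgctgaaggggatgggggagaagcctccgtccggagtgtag
The alignment has 240 columns, of which 170 (70.8%) are identical and 3 are gaps. The longest stretch in common is 23 bases, in the coding sequences and in the whole transcripts alike. No stretch of 50 bases in the annotated transcripts of any of the 10 genes occurs in another of them. In other genes, 19 of 7516 such stretches of Camk2a (0.253%) and 10 of 9443 of Camk2b (0.106%) recur, and none of those of the remaining 8 genes.

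The libraries held 18797061 to 23938729 counts on genes, and mitochondrial genes took 2.53% to 2.80% of them. Values are given as CPM (counts per 1000000 counts of the library) after scaling between libraries. A gene was called changed at an unadjusted p under 0.05 in edgeR's quasi-likelihood test, which is the threshold the study used, and the Benjamini-Hochberg adjusted p over the 18580 features tested stands beside it. By this rule 8.6% of all tested features were called, 4.91% higher and 3.69% lower in PLDP mice. Over all features the median log2 fold change was −0.00062 and the median absolute log2 fold change was 0.074. At an adjusted p under 0.05, 0.0323% of features were called. The values of the diets did not overlap, with all PLDP mice above all control mice, for 7.29% of features, and with all PLDP mice below for 6.9%.

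Transcripts of the main forebrain CaMKII subunit, Camk2a, and of the inhibitor Camk2n1 were both about 7% more abundant in PLDP mice than in control mice. Camk2a was 7.37% higher (95% interval 2.39% to 12.6%) and Camk2n1 was 6.75% higher (1.68% to 12.1%). These were 2 of 10 genes called higher, beside 4.91% of all features, and 0 of 10 were called lower. Neither passed after adjustment, and the adjusted p of the 10 genes ran from 0.350 to 0.954 in edgeR's quasi-likelihood test. The other 8 genes were not called, with log2 fold changes on both sides of 0. Of the 10 genes, 7 had a higher and 3 a lower mean in PLDP mice, and the median log2 fold change of the 10 was 0.046. Over all features, 49.8% had a log2 fold change above 0. The diets did not overlap for 3 of 10 genes (Camk2a, Camk2b and Camk2n1), all higher in PLDP mice, beside 7.29% of all features. As RNA was taken from whole brain, a change in the number of cells that express a gene and a change in the RNA per cell cannot be told apart in any of these values.

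**Figure D1:**
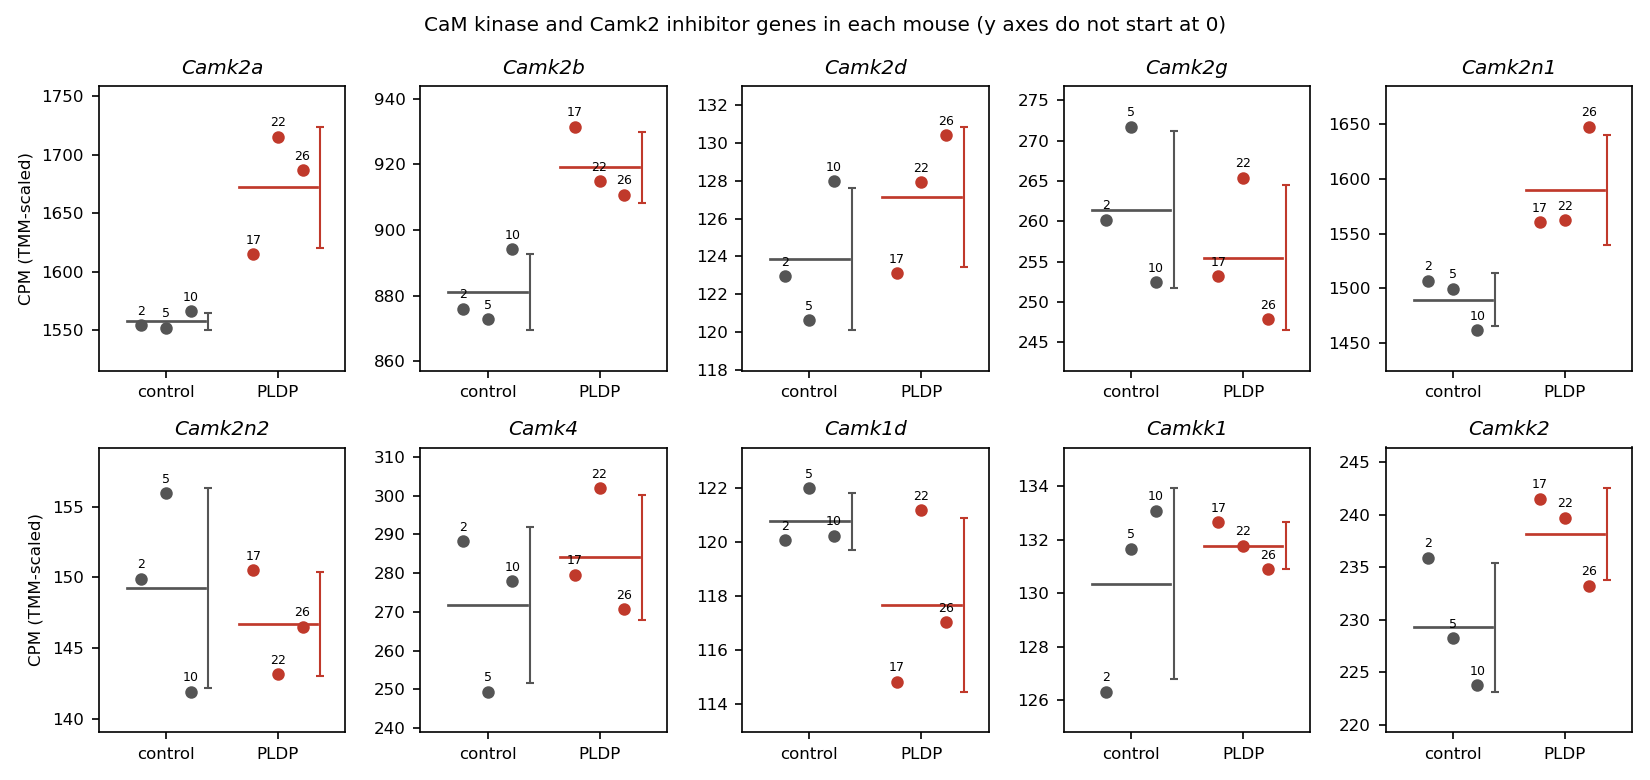
Level of each of the 10 genes in each mouse, in CPM scaled by TMM, with control mice 2, 5 and 10 in grey and PLDP mice 17, 22 and 26 in red. The horizontal line is the mean and the bar at its right is 1 SD to either side (n = 3), and the y axes differ between genes and do not start at 0. The values of the diets are apart for Camk2a, Camk2b and Camk2n1 and overlap for the other 7 genes.

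Camk2a encodes the α subunit, the most abundant CaMKII subunit of forebrain excitatory neurons (chr18:60925618-60988152, plus strand, GRCm38; ENSMUSG00000024617). Its level was 1555, 1552 and 1566 CPM in control mice 2, 5 and 10, and 1615, 1716 and 1687 CPM in PLDP mice 17, 22 and 26. All 3 PLDP mice were above all 3 control mice, and mouse 17 was the PLDP mouse closest to them. The means were 1558 ± 7.57 CPM (SD, n = 3) in control mice and 1672 ± 51.7 CPM (SD, n = 3) in PLDP mice. Camk2a rose by a log2 fold change of 0.10 (SE 0.032, 95% interval 0.034 to 0.171; adjusted p = 0.350). The gene had 31559 to 40917 counts per mouse. The p was under 0.05 in 14 of 14 alternative fits, with log2 fold changes from 0.08 to 0.13. The adjusted p depended on single mice: it was 0.0181 without PLDP mouse 17, at a log2 fold change of 0.13, and 0.821 without control mouse 2.

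The β subunit gene Camk2b, whose product binds actin filaments and is also abundant outside the forebrain, lies at chr11:5969644-6066362 on the minus strand (ENSMUSG00000057897). It was at 876.0, 872.9 and 894.2 CPM in control mice 2, 5 and 10 and at 931.4, 914.9 and 910.7 CPM in PLDP mice 17, 22 and 26. The diets did not overlap, and here mouse 17 was the highest of the PLDP mice. The means of 881 ± 11.5 and 919 ± 10.9 CPM (SD, n = 3 each) gave a log2 fold change of 0.06 (95% interval −0.0081 to 0.130), which was not called (adjusted p = 0.631). It was called in 1 of 14 alternative fits, limma voom. Whether the changes of Camk2a and Camk2b differ was not tested, and their intervals overlap over most of their range.

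The δ and γ subunits are made in many tissues besides brain. Camk2d (chr3:126596302-126846326, plus strand; ENSMUSG00000053819) was at 123.0, 120.6 and 128.0 CPM in control mice 2, 5 and 10 and at 123.1, 127.9 and 130.4 CPM in PLDP mice 17, 22 and 26. Camk2g (chr14:20734875-20794088, minus strand; ENSMUSG00000021820) was at 260.2, 271.7 and 252.4 CPM in control mice and at 253.2, 265.4 and 247.8 CPM in PLDP mice. For both genes the diets overlapped. The log2 fold change was 0.04 for Camk2d (95% interval −0.055 to 0.130; adjusted p = 0.867) and −0.03 for Camk2g (−0.122 to 0.055; adjusted p = 0.881). These intervals do not reach the log2 fold changes of 0.20 that were the median absolute size among all called features, but that of Camk2d takes in the value found for Camk2a.

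**Figure D2:**
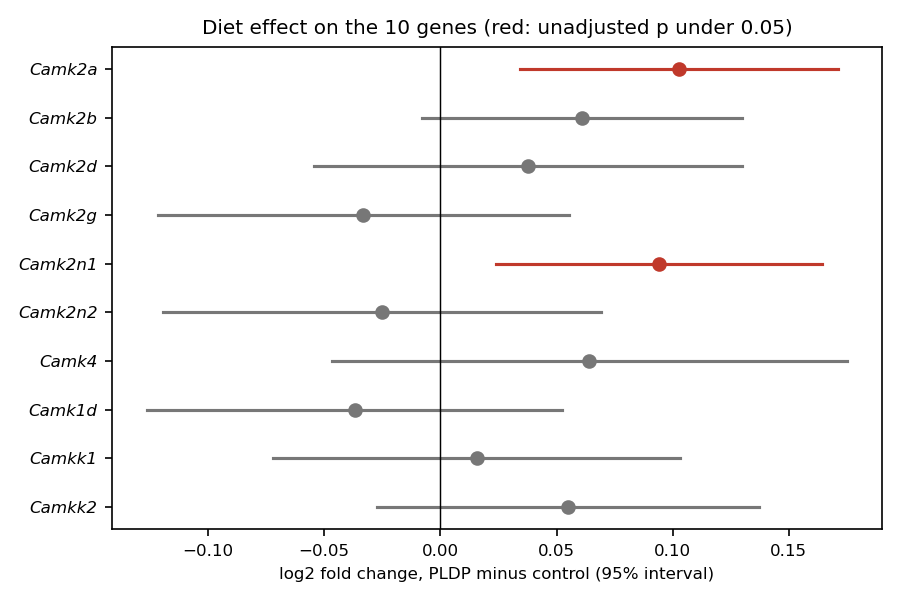
Log2 fold change of each of the 10 genes, PLDP minus control, with its 95% interval from edgeR's quasi-likelihood fit (n = 3 mice per diet). The vertical line is at 0, and red marks the genes with an unadjusted p under 0.05. The intervals of Camk2a (0.034 to 0.171) and Camk2n1 (0.024 to 0.164) lie above 0, and those of the other 8 genes include it.

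Of the inhibitors, Camk2n1 (chr4:138454314-138460123, plus strand; ENSMUSG00000046447) had the highest level per length of the 10 genes, as given further on. It was at 1507, 1500 and 1462 CPM in control mice 2, 5 and 10 and at 1560, 1562 and 1648 CPM in PLDP mice 17, 22 and 26. All 3 PLDP mice were above all 3 control mice, and mouse 26 stood above the other PLDP mice. The means were 1489 ± 24.4 and 1590 ± 50.05 CPM (SD, n = 3 each). Camk2n1 rose by a log2 fold change of 0.09 (SE 0.033, 95% interval 0.024 to 0.164; adjusted p = 0.424). The p was under 0.05 in 13 of 14 alternative fits. The call was lost without PLDP mouse 26, where the log2 fold change was 0.07, and the adjusted p ran from 0.0904 to 0.821 over the alternatives.

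Camk2n2 (chr16:20619215-20621287, minus strand; ENSMUSG00000051146), whose coding sequence is shown above beside that of Camk2n1, was not called. It was at 149.9, 156.0 and 141.9 CPM in control mice 2, 5 and 10 and at 150.5, 143.1 and 146.5 CPM in PLDP mice 17, 22 and 26. The PLDP values all lay within the range of the control values. The log2 fold change was −0.03 (95% interval −0.120 to 0.069; adjusted p = 0.923), and its sign turned to 0.0074 without control mouse 5. The difference in fold change between Camk2n1 and Camk2n2 was not tested.

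Camk4 encodes CaMKIV, which is abundant in the nuclei of cerebellar granule cells and forebrain neurons (chr18:32934931-33191228, plus strand; ENSMUSG00000038128). It was at 288.3, 249.4 and 277.9 CPM in control mice 2, 5 and 10 and at 279.6, 302.0 and 270.8 CPM in PLDP mice 17, 22 and 26. Control mouse 5 was the lowest of all mice and PLDP mouse 22 the highest, and the diets overlapped. The log2 fold change of 0.06 (95% interval −0.047 to 0.175; adjusted p = 0.782) had the widest interval of the 10 genes. It ranged from 0.0050 without control mouse 5 to 0.107 without control mouse 2. The summed level of 8 cerebellar granule cell markers was likewise lowest among control mice in mouse 5, at 886 CPM against 1044 and 1053 CPM in mice 2 and 10, but among PLDP mice it was 1052, 1029 and 871 CPM in mice 17, 22 and 26. The part of granule cells in the spread of Camk4 was not tested. In the annotation 72 exon bases of Camk4 overlap an exon on the opposite strand, and whether counting used strand is not given in the sources used here.

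Camk1d (chr2:5293457-5714515, minus strand; ENSMUSG00000039145) encodes the δ form of CaMKI, a kinase of the cytoplasm. Its level was 120.1, 122.0 and 120.2 CPM in control mice 2, 5 and 10 and 114.8, 121.2 and 117.1 CPM in PLDP mice 17, 22 and 26. PLDP mice 17 and 26 were below all control mice and PLDP mouse 22 was among them. The log2 fold change was −0.04 (95% interval −0.126 to 0.052; adjusted p = 0.864).

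The upstream kinases phosphorylate CaMKI and CaMKIV, and CaMKK2 also phosphorylates AMPK. Camkk1 (chr11:73019008-73042073, plus strand; ENSMUSG00000020785) was at 126.3, 131.7 and 133.1 CPM in control mice 2, 5 and 10 and at 132.6, 131.8 and 130.9 CPM in PLDP mice 17, 22 and 26. Camkk2 (chr5:122731170-122779409, minus strand; ENSMUSG00000029471) was at 235.9, 228.2 and 223.8 CPM in control mice and at 241.5, 239.7 and 233.2 CPM in PLDP mice. For Camkk1 the PLDP mice lay within the control range, while for Camkk2 they overlapped it through PLDP mouse 26 and control mouse 2. The log2 fold change was 0.016 for Camkk1 (95% interval −0.072 to 0.103; adjusted p = 0.954), with its sign turned to −0.0078 without control mouse 2. For Camkk2 it was 0.05 (−0.027 to 0.137; adjusted p = 0.740).

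To set the levels of the genes side by side, CPM were divided by the length of each gene's merged exons. Over the 6 mice, Camk2n1 was the highest at a mean of 346 CPM per kb, followed by Camk2a at 216, Camk2n2 at 115 and Camk2b at 98.6 CPM per kb. Camk4 (85.3), Camk2g (40.4), Camkk1 (35.2), Camkk2 (21.4) and Camk1d (16.1 CPM per kb) came next, and Camk2d was the lowest at 5.58 CPM per kb. No neighbours in this order overlapped in their ranges over the 6 mice. The order depends on the length taken. Per kb of the longest transcript, Camk2n1 (346) and Camk2a (325) overlapped, as did Camk2n2 (115) and Camk4 (102). Camk2b was then above both at 218 CPM per kb, and Camk2d (22.7) was above Camk1d (17.1), since the merged exons of Camk2d hold 22493 bases and its longest transcript 5524.

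From these levels per kb of merged exons, the make-up of the CaMKII transcripts was computed, without a test. Camk2a made up 59.4%, 59.2% and 59.4% of the summed level of the 4 subunits in control mice 2, 5 and 10 and 59.5%, 60.9% and 61.0% in PLDP mice 17, 22 and 26. PLDP mouse 17 was thus close to the control mice and mice 22 and 26 were higher, for a difference of 1.14 percentage points in the means. The Camk2g share was 11.6%, 12.1% and 11.2% in control mice and 10.9%, 10.99% and 10.5% in PLDP mice, so that every PLDP mouse was below every control mouse, at means of 10.8% against 11.6%. The shares of Camk2b (27.5% ± 0.278 against 27.2% ± 0.783, SD, n = 3 each) and Camk2d (1.57% against 1.53%) overlapped. With lengths from the longest transcript the Camk2a share was 50.5% in control mice and 51.7% in PLDP mice, and the Camk2g share 11.4% and 10.6%. A share can fall because another subunit is higher, and the Camk2g level itself was not called.

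The ratios of inhibitor to kinase transcripts overlapped between the diets. The level of Camk2n1 divided by the summed CaMKII level was 0.953 ± 0.019 in control mice and 0.966 ± 0.035 in PLDP mice (SD, n = 3 each). Its lowest and highest values among PLDP mice were 0.932 in mouse 22 and 1.001 in mouse 26, against control values of 0.932 to 0.968. Only mouse 26 lay outside the control range. The same ratio for Camk2n2 was 0.329 ± 0.016 in control mice and 0.307 ± 0.013 in PLDP mice, with overlap. Camk2a divided by Camk2b was 2.16 and 2.23, with overlap.

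**Figure D3:**
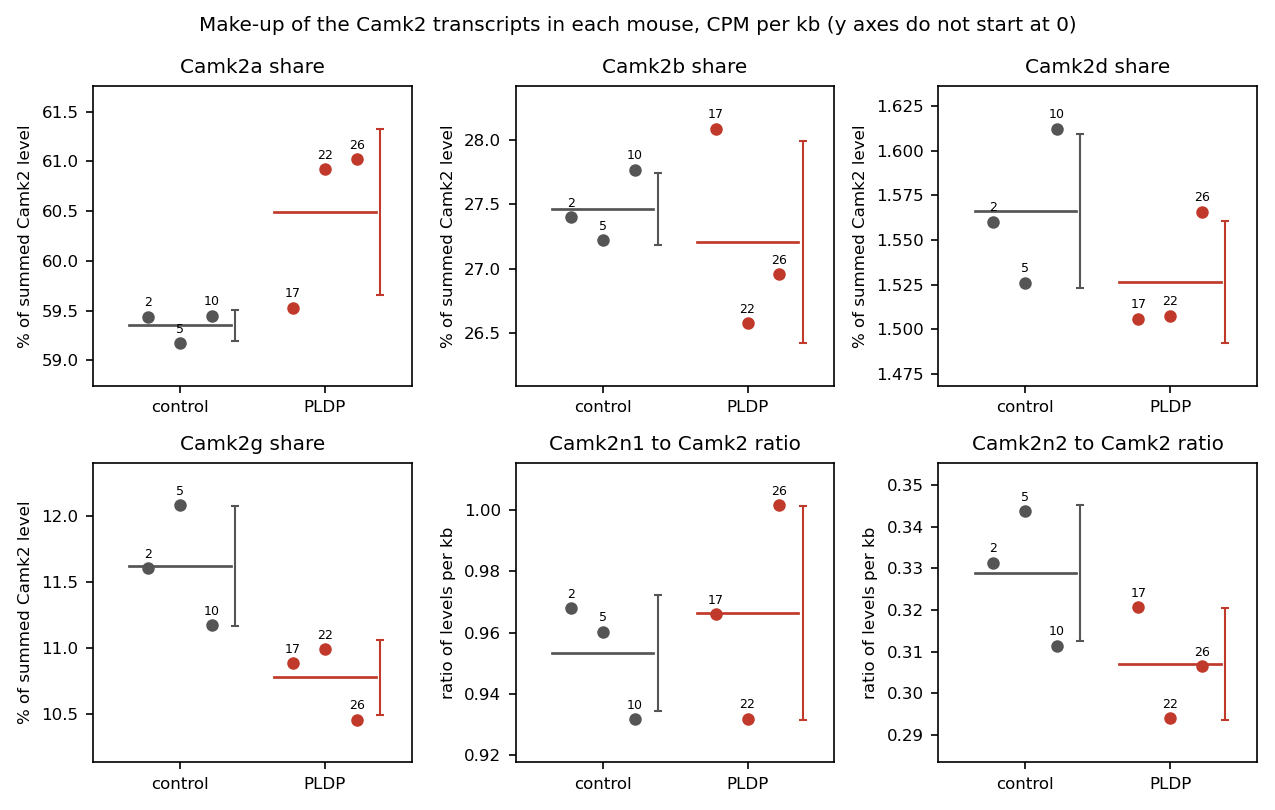
Make-up of the CaMKII transcripts in each mouse, from CPM per kb of merged exons: the share of each subunit in the summed level of the 4 subunits (percent), and the level of each inhibitor divided by that sum. Lines are means and bars 1 SD to either side (n = 3), and the y axes do not start at 0. The diets are apart for the shares of Camk2a (59.4% against 60.5% in the means) and Camk2g (11.6% against 10.8%) and overlap in the other 4 panels.

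The 10 genes were set beside 60 others of the same pathway in 6 lists, also chosen with earlier results of these data known. Of these 60 genes, 59 were tested. In these lists 9 genes were called higher and 2 lower, or 18.6% of those tested beside 8.6% of all features, and 0 passed after adjustment in edgeR's quasi-likelihood test. That share rested on single mice: it was 8.47% (5 of 59) without PLDP mouse 26, beside 7.24% of all features, 11.9% (7 of 59) without control mouse 5, beside 6.49%, and 33.9% (20 of 59) without PLDP mouse 17, beside 12.5%. The list with the largest number of calls was that of substrates and anchors of CaMKII at the synapse. There 5 of 15 genes were called higher, beside 4.91% of all features, and 0 lower, beside 3.69%. A higher mean in PLDP mice was found for 14 of 15 (median log2 fold change 0.053). Over all features, 49.8% had a log2 fold change above 0. Dlg4, which encodes PSD-95, the main scaffold of the postsynaptic density, was at 493.4, 489.6 and 478.5 CPM in control mice 2, 5 and 10 and at 507.8, 539.1 and 546.9 CPM in PLDP mice 17, 22 and 26. As for Camk2a, the diets were apart and mouse 17 was the PLDP mouse nearest to the control mice. Dlg4 rose by a log2 fold change of 0.13 (adjusted p = 0.326). Grin2b, the NMDA receptor subunit that anchors CaMKII, rose by 0.19 (adjusted p = 0.306), with PLDP mouse 17 at 194.6 CPM inside the control range. The α-actinin gene Actn4 rose by 0.14 (adjusted p = 0.349) and the synapsin gene Syn1, the highest of the list per length, by 0.09 (adjusted p = 0.497), and for both the diets did not overlap.

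Genes for calmodulins, calmodulin-binding proteins and calcineurin did not share one direction. Of 8 genes for calmodulins and calmodulin-binding proteins, 1 was called higher, beside 4.91% of all features, and 1 lower, beside 3.69%. Calm2, a calmodulin gene and the highest of the list per length, fell by 0.09 on the log2 scale (adjusted p = 0.456). Nrgn, which encodes neurogranin, a protein that holds calmodulin in dendrites, rose by 0.09 (adjusted p = 0.519). The calmodulin gene Calm3 was not called, at a log2 fold change of 0.018. Calcineurin is a phosphatase that opposes the kinases at many sites. Of the 8 tested genes for calcineurin and its regulators, 0 were called (median log2 fold change −0.010), beside 8.6% of all features. With so few genes, a count of 0 is not read as a result. The catalytic subunit Ppp3ca, the highest per length, was at 0.05 (adjusted p = 0.72). The calcineurin subunit gene Ppp3r1 had 2 to 7 counts per mouse and was not tested. In the annotation 462 of its 3228 exon bases are shared with another gene on the same strand, and how such reads were counted is not given in the sources used here, so the low count may not reflect its expression.

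In the nuclear list, 2 of 10 genes were called higher, beside 4.91% of all features, and 1 lower, beside 3.69% (median log2 fold change 0.064). The list had 1 call without PLDP mouse 26. Crebbp, the CREB-binding coactivator, was at 53.0, 54.3 and 55.5 CPM in control mice 2, 5 and 10 and at 58.6, 63.2 and 67.1 CPM in PLDP mice 17, 22 and 26. All PLDP mice were above all control mice, and Crebbp rose by a log2 fold change of 0.21 (adjusted p = 0.256). Hdac5, a histone deacetylase that CaM kinases drive out of the nucleus, rose by 0.11 (adjusted p = 0.399), and the transcription factor gene Mef2a fell by 0.10 (adjusted p = 0.472). Mef2d, the highest of the list per kb of merged exons, was at 0.05 (adjusted p = 0.755). Per kb of the longest transcript it was not the highest, with Hdac5 above it (48.0 against 38.6 CPM per kb). Of the 10 other CaMK family genes (median log2 fold change 0.011), 1 was called, beside 8.6% of all features. A count this near the share of all features is not read as a result about the list. The gene was Camk1g, which encodes CaMKIγ, higher by 0.15 (adjusted p = 0.521). Dclk1, the highest per length, was at 0.05 (adjusted p = 0.765). Among the 8 genes for AMPK and LKB1, 0 were called (median −0.0095), which with so few genes is likewise not read as a result. Cab39, the highest per length, was at −0.07 (adjusted p = 0.675).

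Single mice decided some of these calls. Grin2b, Dlg4, Actn4 and Crebbp had a p under 0.05 in 14 of 14 alternative fits. Without PLDP mouse 26 the calls of Camk1g (0.13), Calm2 (−0.07), Nrgn (0.09), Syn1 (0.07), Mef2a (−0.10) and Hdac5 (0.10) were lost, each with its log2 fold change there. Without control mouse 5 those of Camk1g (0.16), Calm2 (−0.08), Syn1 (0.08) and Mef2a (−0.09) were lost. The same held without control mouse 2 for Camk1g (0.12) and Calm2 (−0.08), without control mouse 10 for Nrgn (0.05) and Syn1 (0.08), and without PLDP mouse 22 for Syn1 (0.09). Without PLDP mouse 17 the share of all features called was larger, at 12.5% against 8.6%. Calls in the lists were then 6 of 10 in the nuclear list, 4 of 8 in the calmodulin list, 2 of 10 among other CaMK family genes, and 2 genes for calcineurin.

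**Figure D4:**
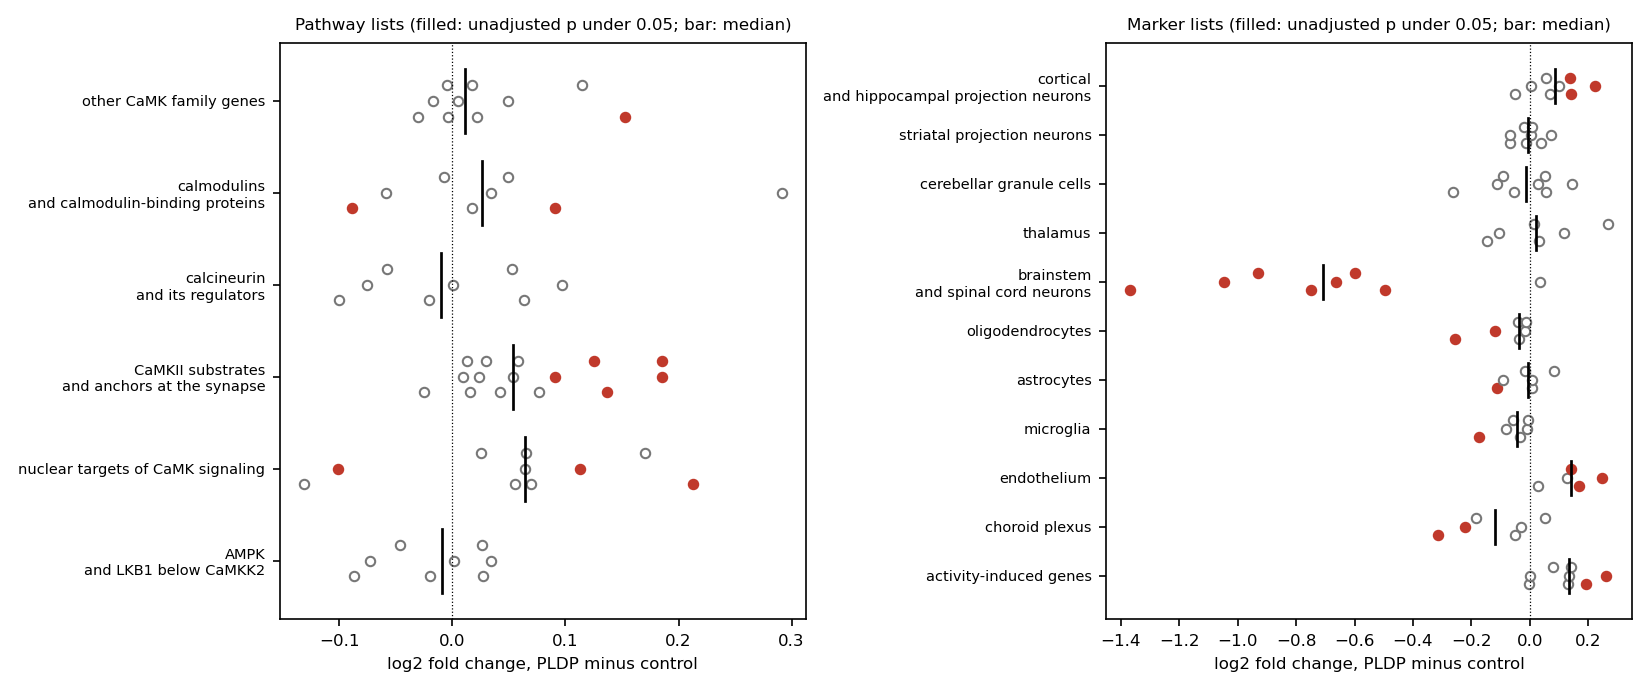
Log2 fold change, PLDP minus control, of the genes in the 6 pathway lists (left) and the 11 marker lists (right), with 1 point per gene, red where the unadjusted p was under 0.05 and open otherwise, and a bar at the median of each list. The 2 panels have different x axes. Red points lie to the right in the synaptic list (5 of 15 genes, beside 4.91% of all features called higher). In the list of brainstem and spinal cord neurons they lie to the left (7 of 8 genes, beside 3.69% called lower).

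Marker genes of brain regions and cell types also moved between the diets, and their part in the values of the 10 genes was not tested. Of 8 markers of cortical and hippocampal projection neurons, the cells in which Camk2a is known to be abundant, 3 were called higher (Fezf2, Neurod2 and Cux2) and 0 lower, beside 4.91% and 3.69% of all features, and 1 of 8 was called without PLDP mouse 22, beside 8.18% of all features called there in either direction. Their summed level was 1157 to 1214 CPM in control mice and 1229 to 1274 CPM in PLDP mice. Relative to the control mean this sum was 107.1%, 105.8% and 103.3% in PLDP mice 17, 22 and 26, while Camk2a was 103.7%, 110.1% and 108.3% and Camk2n1 104.8%, 104.9% and 110.6%. Mouse 17 had the highest marker sum and the lowest Camk2a of the PLDP mice, but most markers did not follow the sum. Slc17a7, the vesicular glutamate transporter gene that dominates the sum, had a log2 fold change of 0.07 (adjusted p = 0.617). It was at 988.9, 960.1 and 925.0 CPM in PLDP mice 17, 22 and 26. Among PLDP mice, Slc17a7 and Emx1 were highest in mouse 17. The other markers, the 3 called genes among them, were lowest in mouse 17, as Camk2a was. Of 8 markers of brainstem and spinal cord neurons, 7 were called lower (median log2 fold change −0.71; 5 to 6 with 1 mouse left out), among them the glycine transporter gene Slc6a5 with an adjusted p of 0.0369 in edgeR's quasi-likelihood test. The adjusted p of Slc6a5 was 0.0509 with library size only, 0.0786 with DESeq2, and 0.223, 0.143 and 0.0679 without control mouse 2, 5 and 10, and it was under 0.05 in the other alternatives, with the log2 fold change negative in all 14. The summed level of these 8 markers was 157 to 170 CPM in control mice and 87.2 to 121 CPM in PLDP mice, and it was lowest in mouse 22, the PLDP mouse with the highest Camk2a.

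The counts in the remaining marker lists stand beside 4.91% of all features called higher and 3.69% called lower, and a single call in a list of 6 genes is not read as a result. Among them, 3 of 5 endothelial genes were called higher (summed level 209 to 222 CPM in control mice and 233 to 242 CPM in PLDP mice), and 2 of 8 activity-induced genes were higher (742 to 847 and 706 to 1027 CPM). Called lower were 2 of 6 choroid plexus genes (747 to 804 and 588 to 746 CPM), 2 of 6 oligodendrocyte genes (5004 to 5376 and 4652 to 5274 CPM), 1 of 6 astrocyte genes (2620 to 2672 and 2571 to 2795 CPM) and 1 of 6 microglial genes (300 to 314 and 291 to 296 CPM). In the lists for striatal projection neurons (686 to 733 and 687 to 731 CPM), cerebellar granule cells (886 to 1053 and 871 to 1052 CPM) and thalamus (284 to 300 and 262 to 316 CPM), 0 genes were called. No marker was at 0 in any list. Several of these counts depended on single mice, whose removal left between 5.95% (control mouse 2) and 12.5% (PLDP mouse 17) of all features called. The activity-induced list had 0 calls with DESeq2, with limma voom and without control mouse 2, control mouse 10, PLDP mouse 22 or PLDP mouse 26, 1 without control mouse 5, and 6 higher without PLDP mouse 17. Granule cell markers had 3 calls lower without control mouse 5 and 3 lower without PLDP mouse 17, and 1 higher without control mouse 10 or PLDP mouse 26. Thalamus markers had 2 calls higher without PLDP mouse 17 and 1 lower without PLDP mouse 26. The oligodendrocyte list had 0 calls without control mouse 5 and 1 without PLDP mouse 22 or 26, and the choroid plexus list had 1 without control mouse 2, control mouse 5 or PLDP mouse 17. The astrocyte list had 0 calls without control mouse 10 or PLDP mouse 26 and 2 without PLDP mouse 17, and the microglial list had 0 without control mouse 5 or PLDP mouse 22. The activity-induced sum was lowest in PLDP mouse 17, at 87.3% of the control mean, and 117.3% and 127.2% in PLDP mice 22 and 26. Among PLDP mice, Camk2n1 was highest in mouse 26 (110.6%) and alike in mice 17 and 22 (104.8% and 104.9%). Camk2a was highest in mouse 22 (110.1%) and lowest in mouse 17 (103.7%). Among control mice the activity-induced sum was lowest in mouse 10 (91.9%), where Camk2a was highest (100.6%). A relation between this sum and the 2 genes was not tested.

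**Figure D5:**
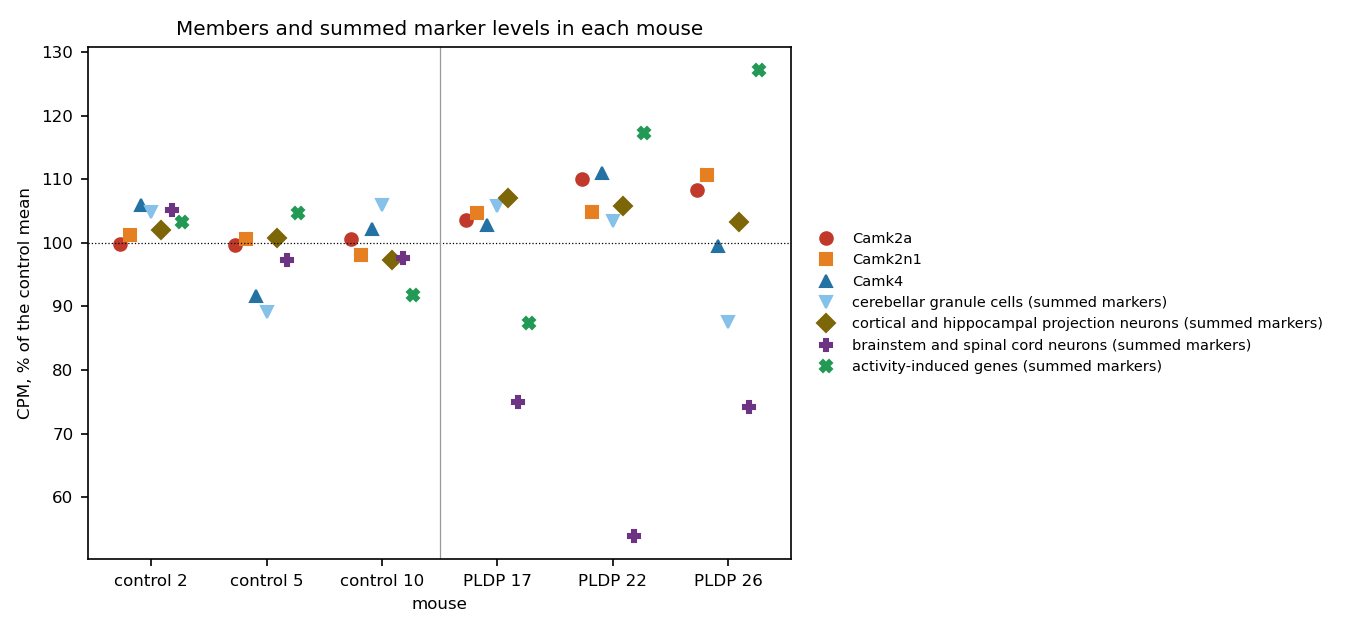
CPM of Camk2a, Camk2n1 and Camk4 and the summed CPM of 4 marker lists in each mouse, as a percentage of the mean of the control mice (dotted line at 100). The y axis does not start at 0. Camk2a and Camk2n1 are above 103 in all 3 PLDP mice, the brainstem and spinal cord sum is between 53.9 and 75.0 in them, and Camk4 lies on both sides of 100 in both diets.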

How the data were processed

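RNA-seq was performed on whole brain of 3 control and 3 PLDP mice, with TruSeq Stranded mRNA libraries and paired-end reads. The authors deposited 1 table of read counts per mouse, without normalization. The submitters' processing notes list cutadapt 2.9, HISAT2 2.2.0, featureCounts 2.6.0 and DESeq2 1.6.3, and builds for mouse and human. The annotation and the use of strand in counting are not given in the sources used here, so reads of overlapping genes on opposite strands may not have been told apart. Symbols and exon lengths came from GENCODE M21 (GRCm38), which holds 54777 of the 55034 Ensembl identifiers. The 5320 numbered features without one (0.628% to 0.655% of counts) were kept under their own names.

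edgeR 4.0.16 in R 4.3.3 was run on the counts: filterByExpr (minimum count 10, minimum total 15), TMM scaling, glmQLFit and glmQLFTest over all 18580 features kept, with diet as the only term, and Benjamini-Hochberg adjustment. An exact permutation test of 3 against 3 mice cannot go below p = 0.1, so none was used. The fit was tested on simulated data. Levels between genes are CPM per kb of merged exons. The alternatives were 8 other settings (no filter, at least 10 counts in every mouse, 3 other scalings, DESeq2 1.42.0, edgeR's exact test and limma voom from limma 3.58.1) and leaving out each of the 6 mice. Tables were handled in Python 3.11.15 with pandas 2.3.3, sequences aligned with Biopython 1.88 and plots drawn with matplotlib 3.10.9.

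The 10 genes, the 6 pathway lists and the 11 marker lists were chosen with earlier results of these data known. The text names the 10 genes, from each pathway list the highest gene per length and up to 4 called genes with the smallest p, and from each marker list at most the gene with the highest CPM and the 2 called genes with the smallest p. A few of the listed genes are not reported here by name. Calm3, Ppp3r1, Cux2 and Emx1 fall outside this rule and were named after their values were seen.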

Additional observations from a re-analysis of the deposited data

How the results depend on the processing

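No paired analysis was possible because the mice of the diets share no numbers. Of the 10 genes, the same 2 were called under the 8 other settings, to which limma voom added Camk2b, and 1 to 2 when 1 mouse was left out (1 without PLDP mouse 26, which took Camk2n1 below the threshold). Camk2n2 turned from −0.03 to 0.0074 without control mouse 5 (−0.061 to 0.0074 over the mice left out), and Camkk1 from 0.016 to −0.0078 without control mouse 2 (−0.0078 to 0.030). With the longest transcript as length, the difference in the Camk2d share was −0.082 points, against −0.040 with merged exons. Among the pathway lists, other CaMK family genes gave 0 calls with DESeq2 and 0 to 2 over the mice left out, and calmodulins and calmodulin-binding proteins 0 with edgeR's exact test and 0 to 4. Over the mice left out, calcineurin gave 0 to 2, nuclear targets 1 to 6, AMPK and LKB1 0 to 1, and the synaptic list 4 to 6 calls. Over all features, DESeq2 called 926 where edgeR's quasi-likelihood test called 1598. At an adjusted p under 0.05 the number was 6, and it ran from 0 without control mouse 5 to 182 without PLDP mouse 17, with 180 of 36099 features when no filter was used. The cause of these differences was not tested. The 10 genes had at least 2190 counts in each mouse.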
